A study of Sus scrofa with 2 samples.

Results

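Vascular smooth muscle nuclei of the left ventricle were 461 of the 31664 nuclei kept from both libraries, 256 in the wild-type library (WT) and 205 in the transgenic library (TG). They were chosen by counts of unique molecular identifiers (UMIs, each standing for 1 captured RNA molecule). Nuclei entered with 500 or more genes and mitochondrial UMIs of no more than 5%. Each then needed at least 5 UMIs, and at least 0.2% of its UMIs, from MYH11, ACTA2, ACTG2 and KCNAB1 together, and more from MYH11 and ACTA2 than from the pericyte genes RGS5 and EGFLAM. RYR2 had to stay under 0.8% and the endothelial genes FLT1, PECAM1 and VWF together under 0.2%. Levels of these 10 genes in the chosen nuclei therefore describe the choice and support nothing further.

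The tissue was frozen free wall of the left ventricle from Bama miniature pigs, and both genotypes had been fed the high-fat-high-sucrose diet for 12 months. WT pigs carried no transgene, and TG pigs were triple-transgenic, labelled PNPLA3I148M-GIPRdn-hIAPP: the lipid droplet lipase PNPLA3 in a variant form, the incretin receptor GIPR in dominant-negative form, and human islet amyloid polypeptide. The promoters that drive the transgenes, the animals' ages and the number of animals in each library are not given in the sources used here. Each genotype had 1 library and both had the same diet, so genotype and library cannot be told apart, no replicate check was possible and no test was made. Intervals are 95% intervals of counting error only: exact Poisson for levels, exact Clopper-Pearson for shares and conditional binomial for ratios.

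Smooth muscle cells form the media of arteries and arterioles and set vessel diameter. Their contraction starts when calcium, entering through voltage-gated channels or released from stores, activates myosin light chain kinase; nitric oxide and cyclic nucleotides relax it. The contractile genes are driven by serum response factor with its partner myocardin, and the cells can also make matrix, as they do in vessel growth and injury. Pericytes, which wrap capillaries and share several of these genes, are the most closely related nuclei in the ventricle. Pericyte, cardiomyocyte, endothelial and fibroblast nuclei were set apart here by similar rules on a few marker genes.

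Smooth muscle nuclei made up 1.53% of the nuclei kept in WT (1.35% to 1.73%) and 1.37% in TG (1.19% to 1.57%). The ratio of the shares was 0.897 (0.742 to 1.08), an interval that includes 1. Median depth was 3906 UMIs per nucleus in WT (712 to 27775) and 2909 in TG (1981 to 15726), with 1183122 and 719327 nuclear-encoded UMIs in all. In WT, 44 of the nuclei held under 2000 UMIs, against 2 in TG. The libraries shared 81 barcodes, none of them among the smooth muscle nuclei.

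The thresholds of the rule passed through sparse counts in both libraries. More TG nuclei lay near the threshold on the positive genes, and more WT nuclei near the limit on RYR2. The 4 positive genes gave a median of 42 UMIs and 1.18% of the UMIs of a WT nucleus, and 23 UMIs and 0.787% in TG. Just inside the 0.2% threshold, between 0.2% and 0.3%, were 4 WT and 19 TG nuclei, and just outside, between 0.1% and 0.2%, were 8 and 17 that met every other condition. Just inside the RYR2 limit, from 0.6% to 0.8%, were 16 and 2 nuclei, and just outside, from 0.8% to 1.0%, were 5 and 3. Only the comparison with RGS5 and EGFLAM kept out 123 WT and 95 TG nuclei.

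The label was checked against 5 smooth muscle markers, of which PDZRN4 alone was not part of the rule. MYH11, the smooth muscle myosin heavy chain (chr3:7002667-7143093 in Sscrofa11.1, per RefSeq), stood at 4428 counts per 1000000 nuclear-encoded UMIs (CPM) in WT (4309 to 4550) and 3666 CPM in TG (3527 to 3809). Pericytes held 109 and 50.0 CPM of MYH11, and cardiomyocytes 9.56 and 5.88 CPM. ACTA2, smooth muscle alpha-actin, was at 2709 and 2059 CPM, and KCNAB1, a potassium channel beta subunit, at 3816 and 3043 CPM. At least 1 UMI of each of these 3 genes was found in 88.8% to 95.6% of the nuclei of either library. ACTG2, the gamma-actin of smooth muscle, was much more uneven, at 991 CPM (936 to 1050) in WT and 139 CPM (113 to 169) in TG, with a UMI in 43.8% and 14.1% of nuclei. In TG, 21 of its 100 UMIs came from 1 nucleus.

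PDZRN4, a PDZ-domain protein with a RING finger (chr5:72574370-72940883), met the label in WT and much less so in TG. It stood at 3493 CPM in WT (3388 to 3601) and 407 CPM in TG (362 to 457), 8.58 times lower in TG (7.62 to 9.69). In WT 68.0% of the smooth muscle nuclei held a PDZRN4 UMI (61.9% to 73.6%), and in TG 21.5% (16.0% to 27.7%). With every nucleus thinned to 1000 UMIs, leaving out 6 shallower WT nuclei, these shares were 65.2% and 16.1%. Fibroblasts, which should lack the gene, had it in 1.28% and 2.21% of nuclei, or 0.5% and 1.2% after thinning, so the TG share lies above that background. Most TG nuclei of the set thus carry the contractile markers without a PDZRN4 UMI.

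**Figure D1:**
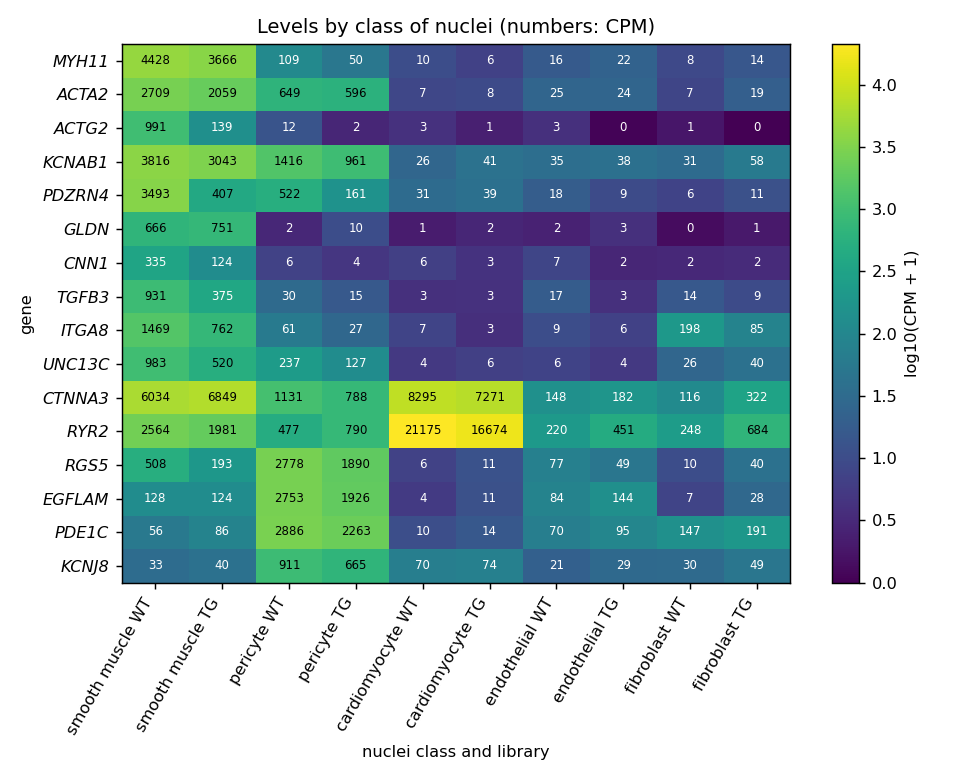
Heat map of 16 genes (vertical) in smooth muscle, pericyte, cardiomyocyte, endothelial and fibroblast nuclei of each library (horizontal). Colour is log10(CPM + 1) and the printed number is the CPM. MYH11, ACTA2 and GLDN are highest in the smooth muscle columns of both libraries, RGS5 and PDE1C in the pericyte columns, and PDZRN4 is at 3493 CPM in WT against 407 CPM in TG smooth muscle nuclei.

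Beyond the rule, a compact set of genes marked these nuclei in both libraries; since the nuclei were chosen on smooth muscle genes, the ratios are descriptions. GLDN, encoding gliomedin, an extracellular olfactomedin-domain protein, stood at 666 CPM in WT and at 751 CPM in TG, 554 and 404 times its level in all other nuclei kept. A GLDN UMI was found in 57.4% and 58.5% of the smooth muscle nuclei, while pericytes held 2.05 and 9.61 CPM. STAC2, a channel-associated adaptor, was 123 and 179 times higher than in the other nuclei, and CYP19A1, the aromatase that makes oestrogen, 108 and 98.0 times. KCNMB1, the beta subunit that tunes the calcium-activated BK potassium channel of smooth muscle, was at 54.9 and 50.0 CPM, 75.9 and 119 times the level elsewhere. RERGL, a small GTPase-like protein, was 88.7 and 175 times higher, and CNN1, the actin-binding protein calponin, 62.8 and 42.0 times.

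Membrane receptors and secreted factors were part of this set. NPY1R, a receptor for the sympathetic co-transmitter neuropeptide Y, stood at 86.2 CPM in WT and at 82.0 CPM in TG. CACNA1H, a T-type calcium channel subunit, was at 112 and 111 CPM, levels that differ by less than their counting error. TGFB3, a transforming growth factor beta, was at 931 CPM in WT and at 375 CPM in TG, 149 and 94.7 times the level in other nuclei. ITGA8, the integrin chain that pairs with beta1 in vessel walls, stood at 1469 and 762 CPM. Among the 20 genes furthest above the other nuclei, TGFB3, ITGA8, UNC13C and CNN1, which the rule did not use, were lower in TG by the criterion given below, and RERGL was higher.

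Against pericytes, genes stood apart on both sides when all smooth muscle nuclei were summed. RGS2, a brake on Gq signalling, was 39.2 times higher in WT smooth muscle nuclei than in WT pericytes and 40.7 times in TG. PDE1C, a calcium-dependent phosphodiesterase, was at 2886 and 2263 CPM in pericytes but 55.8 and 86.2 CPM in smooth muscle nuclei. KCNJ8, the pore of the vascular KATP channel, was at 911 and 665 CPM in pericytes against 33.0 and 40.3 CPM. COLEC11, a collectin, was at 76.0 and 61.5 CPM in pericytes against 1.69 CPM in WT smooth muscle nuclei and no UMI in TG.

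CTNNA3, an alpha-catenin of the cardiac intercalated disc (chr14:69195231-70974543), was abundant in smooth muscle nuclei, although it is best known from heart muscle. It was at 6034 CPM in WT and at 6849 CPM in TG, where cardiomyocytes held 8295 and 7271 CPM, 1131 and 788 CPM in pericytes and 116 and 322 CPM in fibroblasts. RYR2, the calcium release channel of heart muscle, stood at 2564 and 1981 CPM under its limit, far below the 21175 and 16674 CPM of cardiomyocytes. Among the 62 WT and 57 TG nuclei with RYR2 under 0.1%, CTNNA3 was still at 3945 CPM (3685 to 4217) and 3896 CPM (3621 to 4186). In the 77 and 38 nuclei with RYR2 from 0.3% to 0.8% it was at 6831 and 8610 CPM. CTNNA3 was thus above its pericyte and fibroblast levels also where RYR2, a gene of the rule, was lowest. Cardiomyocyte markers still summed to 3977 CPM in WT and to 9211 CPM in TG in those nuclei, and their part in the CTNNA3 level was not tested.

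Transcripts of other cell types were present in the smooth muscle nuclei and were unequal between the libraries. The 16 cardiomyocyte markers summed to 4486 CPM in WT and to 9702 CPM in TG smooth muscle nuclei, with none at 0, beside 25114 and 22544 CPM in cardiomyocytes. The same markers summed to 3307 and 10667 CPM in fibroblasts and 4087 and 12313 CPM in pericytes, so the excess in TG was common to all 3 cell types. If a profile of the whole library accounts for these markers, it would make up 25.7% of the UMIs in WT and 62.5% in TG smooth muscle nuclei. The 13 fibroblast markers summed to 2892 and 2853 CPM, although 7 of them were higher in TG and 2 lower, and their median log2 ratio was 0.97. The 15 macrophage markers summed to 1057 and 1268 CPM and the 15 endothelial markers to 614 and 1155 CPM, with RASIP1 at 0 in both. The 15 lymphocyte markers, 4 of them with 20 UMIs or more, summed to 143 and 367 CPM. GNLY and KLRB1 were at 0 in WT and BCL11B at 0 in TG.

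Some nuclei of the set carried whole programmes of another cell type. Clustering of the 461 nuclei gave 7 sub-clusters, and sub-clusters 4 to 7 had fibroblast, macrophage, vascular endothelial and lymphatic endothelial markers at 14460, 7536, 6224 and 4322 CPM. They held 24 WT nuclei (9.38%) and 46 TG nuclei (22.4%). Sub-cluster 3, with 42 WT and 28 TG nuclei, had pericyte markers at 9815 CPM, above its smooth muscle markers at 8787 CPM. The nuclei of the libraries lay largely in different sub-clusters: sub-cluster 1 held 168 WT and 4 TG nuclei and sub-cluster 2 held 22 WT and 127 TG nuclei. TNC, MAPK4, CTNND2, ACTG2, CSRNP3 and COL12A1 were among the 10 leading genes of sub-cluster 1. That these genes were lower in TG restates the same contrast, since sub-cluster 1 held almost only WT nuclei. In sub-cluster 2, cardiomyocyte markers were at 10531 CPM beside smooth muscle markers at 11607 CPM. In sub-cluster 1 they were at 5021 and 19147 CPM. The 10 leading genes of sub-cluster 2 included the cardiomyocyte markers FHOD3 and MYPN, and also VIPR2, which is not on that list. The part of cardiomyocyte transcripts in setting sub-cluster 2 apart was not tested. No doublet caller was run, and results that lead the text are also given without sub-clusters 4 to 7.

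Between the libraries, smooth muscle nuclei differed in many genes, among them COL12A1, MAPK4, TNC, UNC5C and ATF3, which were 10.3 to 51.0 times lower in TG. A gene was called when its CPM ratio was at least 1.5 in either direction with an interval that left out 1. Of 9011 genes with at least 20 UMIs, 1574 (17.5%) were higher in TG and 716 (7.95%) lower, and the median log2 ratio of TG to WT was 0.18. Under TMM scaling that median was -0.06, 989 genes (11%) were higher and 1281 (14.2%) lower, so the share of higher genes among those called moved from 68.7% to 43.6%. A ratio of at least 2 was met by 1021 genes (11.3%) higher in TG and 399 (4.43%) lower. Without sub-clusters 4 to 7, 1209 genes (15.6%) were higher and 738 (9.52%) lower. Directions of modest ratios thus depend on the scaling, and values below are to be read against the median of 0.18.

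The genes named were the 15 furthest apart in each direction among those with at least 50 CPM in the higher library and a level there no lower than in the other nuclei. Those lower in TG included a pair of matrix genes. COL12A1, a collagen that sits on the surface of fibrils (chr1:90744409-90875127), had 839 UMIs in WT and 10 in TG. That is 709 CPM (662 to 759) against 13.9 CPM (6.67 to 25.6), 51.0 times lower in TG (27.6 to 107), and a UMI in 33.2% and 3.41% of nuclei. TNC, the matricellular protein tenascin C (chr1:255533235-255630381), was at 688 and 40.3 CPM, 17.1 times lower (11.8 to 25.6). It had UMIs in 34.8% and 2.93% of nuclei, and 11 of its 29 TG UMIs came from 1 nucleus. Neither gene was lower in the other nuclei of TG: COL12A1 stood there at 27.5 CPM in WT and at 28.7 CPM in TG, and TNC at 1.88 and 4.39 CPM.

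Others were genes of guidance, junctions, signalling and vesicles. UNC5C, a receptor for the guidance protein netrin, was at 596 CPM in WT and at 38.9 CPM in TG, 15.3 times lower (10.5 to 23.2). SEMA3E, a secreted semaphorin, had 101 UMIs in WT and 1 in TG, a ratio of 61.4 with a counting interval of 10.8 to 2449. CTNND2, a delta-catenin of cell junctions, had 140 and 2 UMIs, a ratio of 42.6 (11.6 to 355). MAPK4, an atypical MAP kinase, stood at 402 and 13.9 CPM, 28.9 times lower (15.6 to 60.7), with a UMI in 46.5% and 3.41% of nuclei. RAB27B, a GTPase of vesicle release, had 73 UMIs in WT and 1 in TG, a ratio of 44.4 (7.72 to 1777). No more than 17 TG nuclei held a UMI of any of the 5. In WT, UNC5C and MAPK4 had a UMI in 137 and 119 of 256 nuclei. CTNND2, RAB27B and SEMA3E had one in only 36, 30 and 18 WT nuclei. A single WT nucleus held 21 of the 101 UMIs of SEMA3E, and another count of 14 of 73 for RAB27B came from 1 nucleus.

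The rest were of varied function. ATF3, an early transcription factor of stress (chr9:130772259-130829678), was at 1216 CPM (1154 to 1281) in WT and 118 CPM (94.4 to 146) in TG, 10.3 times lower, with a UMI in 170 of 256 and 37 of 205 nuclei. In the other nuclei ATF3 was at 33.9 and 5.39 CPM. DNAJB1, a heat shock co-chaperone, stood at 190 and 8.34 CPM, 22.8 times lower (10.3 to 62.8). LMCD1, a LIM-domain co-regulator, was at 411 and 27.8 CPM, and ZNF385B, a zinc finger protein, at 157 and 12.5 CPM. TP63, a member of the p53 family, had 117 and 3 UMIs, but 45 of the 117 came from 1 WT nucleus. CSRNP3, a nuclear protein with cysteine- and serine-rich domains, was at 92.1 and 4.17 CPM, GALNTL6, of the mucin-type glycosyltransferase family, at 188 and 12.5 CPM, and PDZRN4 was among the 15 as well. All 15 were also called lower without sub-clusters 4 to 7 and under TMM scaling.

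**Figure D2:**
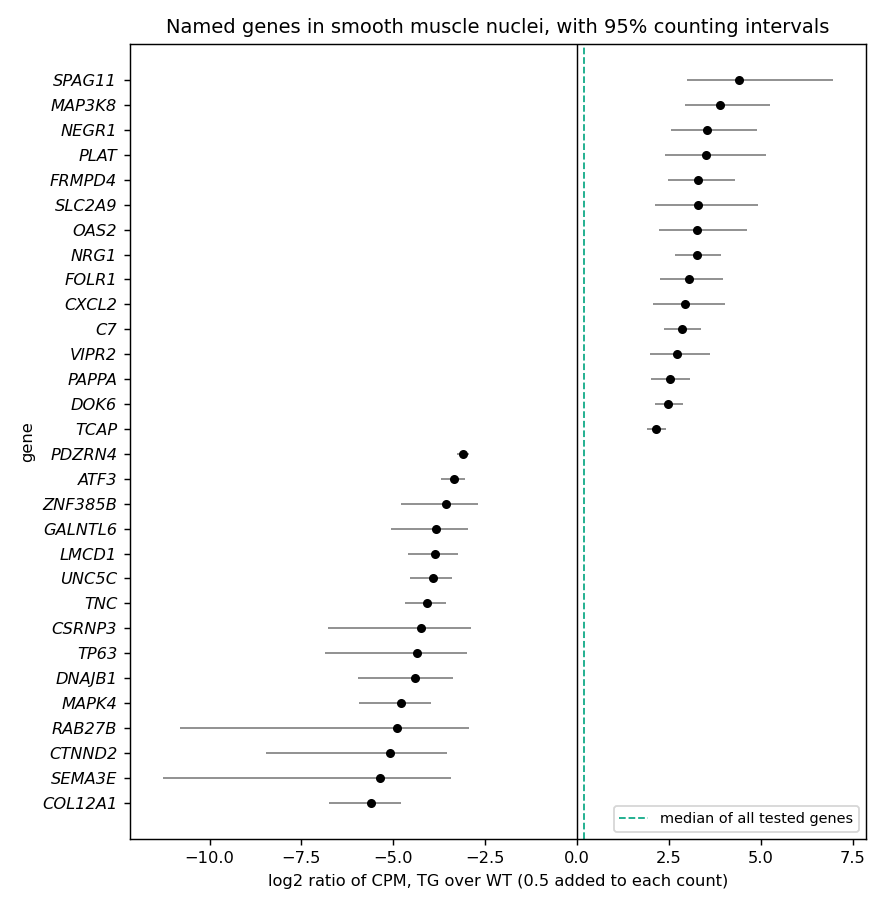
Log2 ratio of TG to WT (horizontal) of the 15 genes furthest higher and the 15 furthest lower in TG (vertical), with bars for the 95% interval of counting error. The dashed line is the median of all 9011 genes, 0.18. Intervals are widest for genes with 1 to 3 UMIs in 1 library, such as SEMA3E, RAB27B and SPAG11.

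Genes higher in TG in smooth muscle nuclei were in part also higher in other nuclei. DOK6, a docking protein of receptor tyrosine kinases, was at 61.7 CPM in WT and at 348 CPM in TG, 5.63 times higher (4.32 to 7.42), with a UMI in 9.38% and 45.4% of nuclei; the other nuclei held 4.60 and 8.39 CPM, and it was also called higher in pericytes, cardiomyocytes, endothelial nuclei and fibroblasts. MAP3K8, a kinase of inflammatory signalling, was at 6.76 and 107 CPM, 15.8 times higher (7.64 to 38.0), and PAPPA, a protease that frees IGF from its binding protein, at 33.8 and 196 CPM. SLC2A9, a urate transporter, stood at 5.07 and 52.8 CPM, 10.4 times higher (4.37 to 30.1), against 0.864 and 0.852 CPM in the other nuclei. VIPR2, a receptor for the vasodilator peptide VIP, was at 14.4 and 97.3 CPM, 6.77 times higher (3.94 to 12.3). MAP3K8 and VIPR2 were called higher in pericytes too, and PAPPA in endothelial nuclei, while SLC2A9 was called in none of the other 4 classes; whether the size differed between classes was not tested. SPAG11, a secreted defensin-like peptide, had 3 UMIs in WT and 45 in TG, a ratio of 24.7 (7.92 to 124), and was likewise at 1.02 and 32.0 CPM in the other nuclei.

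Interferon, chemokine and complement genes were among the 15 as well. OAS2, an interferon-induced antiviral enzyme, was at 6.76 CPM in WT and at 68.1 CPM in TG, 10.1 times higher (4.73 to 24.6). CXCL2, a neutrophil chemokine, stood at 10.1 and 80.6 CPM, and C7, the complement component, at 37.2 and 270 CPM. C7 is also a fibroblast transcript here, at 524 and 1191 CPM in fibroblasts, and TCAP, a sarcomere protein at 143 and 638 CPM, was at 518 and 580 CPM in cardiomyocytes. The part of such transcripts in these differences was not tested.

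A few of these values rested on single nuclei. NRG1, a growth factor of the EGF family, had 157 of its 159 TG UMIs in 1 nucleus, and without the top nucleus of each library its log2 ratio turned from 3.25 to -1.82. PLAT, tissue plasminogen activator, had 22 of 45 TG UMIs in 1 nucleus, FRMPD4, a scaffold protein, 39 of 80, and FOLR1, a folate receptor, 31 of 77. The 8 WT UMIs of NEGR1, a neural adhesion molecule and fibroblast marker, came from 1 nucleus. Without sub-clusters 4 to 7, 11 of the 15 genes had 20 UMIs or more and all 11 were called higher; NRG1 was reversed.

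Most genes of the contractile apparatus were not called, and none was higher in TG. Without the genes of the rule, 5 of 20 were lower and 15 were called in neither direction, with the median log2 ratio at -0.25 against 0.18 over all genes. With MYH11, ACTA2 and ACTG2, which chose the nuclei, 6 of 23 were lower (26.1%, against 7.95% of all genes) and the median was -0.28. SYNPO2, which ties actin to the Z-disc and dense bodies, was at 4611 CPM in WT and at 2697 CPM in TG. CNN1, calponin, was at 335 and 124 CPM, 2.71 times lower, and ACTN1, which cross-links actin, at 375 and 193 CPM. TPM4, a tropomyosin, was lower as well. TAGLN, the actin-binding protein transgelin, was at 512 and 507 CPM, TPM1, a tropomyosin, at 2581 and 2536 CPM, and CALD1, caldesmon, at 4008 and 3859 CPM; none of these 3 was called. Over the 23 genes TMM scaling called 10 lower with a median of -0.52, and subtracting the library-wide profile turned the median to 0.28.

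Of the transcription factors that govern this programme, myocardin was lower in TG while serum response factor was not called. MYOCD, the cardiac and smooth muscle co-activator myocardin (chr12:56931628-57029258), stood at 1397 CPM in WT and at 596 CPM in TG, a ratio of 0.427 (0.383 to 0.475). Pericytes held 43.1 and 63.4 CPM of MYOCD and cardiomyocytes 1273 and 1094 CPM. SRF itself was at 15.2 and 18.1 CPM, and its other partners MRTFA and MRTFB at 412 and 309 CPM and at 206 and 202 CPM. PRDM6, a smooth muscle repressor, was at 138 and 43.1 CPM, GATA6, a factor of the contractile state, at 92.1 and 33.4 CPM, and KLF4, which represses contractile genes, at 27.9 and 9.73 CPM. Over the list of 24 genes tested, 2 were higher (HEYL and CRIP2), 6 lower and 16 neither, with a median of -0.30. That is 8.33% higher and 25% lower, against 17.5% and 7.95% of all genes.

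Calcium and excitation genes were mixed. CACNB2, a beta subunit of voltage-gated calcium channels, was at 1852 CPM in WT and at 2871 CPM in TG, 1.55 times higher, and the pore subunit CACNA1C at 178 and 204 CPM was not called. After thinning to 1000 UMIs, 5.8% of WT and 15.3% of TG fibroblasts held a CACNB2 UMI. Cardiomyocyte markers in smooth muscle nuclei were at 4486 CPM in WT and at 9702 CPM in TG. Their part in the calcium and excitation genes was not tested. TRPC6, a receptor-operated cation channel, was higher at 62.5 and 153 CPM. ITPR1, a calcium release channel of the sarcoplasmic reticulum, was lower at 699 and 416 CPM, and its relative ITPR2 higher at 116 and 193 CPM. KCNQ5, a voltage-gated potassium channel that holds vessels relaxed, was lower at 344 and 45.9 CPM, as was KCNMA1, the BK pore, at 777 and 455 CPM. Of 27 genes tested 5 were higher (18.5%, near the 17.5% of all genes), 4 lower and 18 neither, with a median of 0.13, which TMM scaling moved to -0.11. TMM scaling called 2 higher and 4 lower, and subtracting the library-wide profile gave 9 higher and 5 lower.

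Among genes that relay contraction and relaxation, RGS6 and several phosphodiesterases differed in opposite directions. RGS6, which shortens Gi signalling (chr7:95365212-95930040), was at 811 CPM (760 to 864) in WT and 1802 CPM (1705 to 1903) in TG, 2.22 times higher (2.04 to 2.42). PDE5A, which degrades cyclic GMP, was lower at 451 and 192 CPM, and PDE4D, which degrades cyclic AMP, at 1491 and 628 CPM. PDE3B, which is inhibited by cyclic GMP, was higher at 49.9 and 110 CPM. PLCB1, the phospholipase downstream of Gq, was lower at 1384 and 737 CPM. PRKG1, the cyclic GMP-dependent kinase, at 11684 and 7843 CPM, was not called. In all 30 genes were tested, 3 higher, 5 lower and 22 neither, with a median of -0.03. That is 10% higher and 16.7% lower, against 17.5% and 7.95% of all genes.

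Receptors for vasoactive signals were sparse, with 17 of 37 reaching 20 UMIs. EDNRB, an endothelin receptor, was higher in TG at 74.4 and 200 CPM, 2.69 times, while the contracting receptor EDNRA at 231 and 286 CPM was not called. P2RY14, a receptor for nucleotide sugars, was at 117 and 231 CPM and RAMP1, the partner that makes the CGRP receptor, at 79.5 and 143 CPM, both higher. CALCRL, with which RAMP1 pairs, was lower at 283 and 147 CPM, as was PTGER3, a prostaglandin E2 receptor, at 355 and 133 CPM, and ADRA1A, an alpha1-adrenoceptor, at 37.2 and 13.9 CPM. AGTR1, the angiotensin II receptor, had 22.8 and 13.9 CPM and was not called. The list counted 5 higher, 3 lower and 9 neither, with a median of 0.31. That is 29.4% higher and 17.6% lower, against 17.5% and 7.95% of all genes.

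Among matrix genes of the synthetic state, 16 of 33 tested were lower in TG, 8 higher and 9 neither, with a median of -0.65. That is 48.5% lower and 24.2% higher, against 7.95% and 17.5% of all genes. By count it was the list with most members lower, but by share the immediate early list was above it, at 57.1%. COL3A1, a fibrillar collagen, was at 1403 CPM in WT and at 270 CPM in TG, 5.20 times lower, and COL8A1, a collagen of vessel walls, at 761 and 154 CPM. THBS1, the matricellular protein thrombospondin 1, was at 1765 and 402 CPM, 4.39 times lower, and CCN2, a growth-factor-binding matrix protein, at 921 and 331 CPM. Those higher in TG included ELN, elastin, at 10.1 and 41.7 CPM, SULF1, a heparan sulphatase, at 70.2 and 154 CPM, and DCN, the proteoglycan decorin and a fibroblast marker, at 174 and 389 CPM. MGP, which restrains calcification, was at 912 and 851 CPM and not called. In sum the list stood at 11089 CPM in WT and at 5167 CPM in TG. Fibroblast markers summed to 2892 and 2853 CPM, with 7 of 13 higher in TG and 2 lower, and their part here was not tested.

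Basement membrane and adhesion genes counted 10 lower, 5 higher and 17 neither of 32, with a median of -0.19. That is 31.2% lower and 15.6% higher, against 7.95% and 17.5% of all genes. DMD, dystrophin, which links actin to the membrane, was at 4446 CPM in WT and at 2309 CPM in TG, and its sarcoglycan partner SGCD at 1439 and 449 CPM, 3.21 times lower. SGCA, another sarcoglycan, was higher at 49.9 and 80.6 CPM, as was ITGA7, a laminin-binding integrin, at 240 and 389 CPM. The type IV collagen chains COL4A1 and COL4A2 were lower, at 199 and 113 CPM and at 540 and 295 CPM. The dystrophin relative UTRN, at 1706 and 2056 CPM, was not called.

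In the Notch, TGF-beta and PDGF list 6 of 33 genes were higher (18.2%, near the 17.5% of all genes), 5 lower and 22 neither, with a median of 0.12 that TMM scaling moved to -0.12. NOTCH3, the Notch receptor of mural cells, was higher at 169 CPM in WT and at 320 CPM in TG, as were its target HEYL at 20.3 and 41.7 CPM and PDGFRB, the PDGF receptor of mural cells, at 122 and 245 CPM. JAG1, a Notch ligand, was lower at 228 and 135 CPM, as were PDGFD, a PDGF ligand, at 338 and 132 CPM and LTBP1, which binds latent TGF-beta, at 1401 and 915 CPM. NOTCH3 and PDGFRB are also on the pericyte marker list, of which 11 of 15 genes were tested, 3 higher, 2 lower and 6 neither. That list summed to 3784 and 4123 CPM in smooth muscle nuclei and 20198 and 15092 CPM in pericytes.

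Over the list of insulin, IGF and fuel genes 10 of 36 were higher in TG (27.8%, against 17.5% of all genes), 4 lower and 22 neither, with a median of 0.13, which TMM scaling moved to -0.11. CD36, a fatty acid transporter, was at 139 CPM in WT and at 452 CPM in TG, 3.24 times higher. PDK4, which turns off pyruvate oxidation, stood at 76.9 and 196 CPM, and CPT1B, which brings fatty acids into mitochondria and is the muscle form, at 14.4 and 59.8 CPM. IGF1R, the IGF1 receptor, was at 1690 and 626 CPM, 2.70 times lower, and IGFBP5, an IGF-binding protein, at 76.9 and 12.5 CPM. INSR, the insulin receptor, at 91.3 and 70.9 CPM, was not called. The cardiomyocyte markers were at 4486 CPM in WT and at 9702 CPM in TG, and their part in these muscle fuel genes was not tested. Of the pig genes that correspond to the transgenes, GIPR and IAPP had no UMI in either library and PNPLA3 had 1 in WT, so these nuclei give no check of the genotype label.

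Glucocorticoid and fasting genes leaned higher, with a median of 0.49. Of 16 tested, 7 were higher (43.8%, against 17.5% of all genes), 1 lower and 8 neither. FKBP5, a chaperone induced by glucocorticoids, was at 218 CPM in WT and at 459 CPM in TG, 2.10 times higher, and TXNIP, an inhibitor of thioredoxin and glucose uptake, at 126 and 400 CPM, 3.18 times. The receptor NR3C1 was level at 418 and 413 CPM. ERRFI1, a feedback inhibitor of EGF receptors, was lower at 161 and 22.2 CPM. After subtraction of the library-wide profile the list had 4 higher and 5 lower, and TXNIP turned to a log2 ratio of -3.08.

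Immediate early and heat shock genes were the list furthest below the other genes, with a median of -1.77. Of 21 tested, 12 were lower (57.1%, against 7.95% of all genes), 1 higher (KLF2) and 8 neither. In the RGS6-high nuclei described below this lean to lower levels was absent, with 4 higher, 3 lower and a median of 0.35. Of all genes tested in those nuclei, 10% were higher and 9% lower. NR4A3, an orphan nuclear receptor of the early response, was at 767 CPM in WT and at 113 CPM in TG, JUN, an AP-1 subunit, at 426 and 77.9 CPM and its partner FOS at 261 and 59.8 CPM. EGR1, an early zinc finger factor, was at 220 and 34.8 CPM, and the chaperone HSPA8 at 410 and 120 CPM. The list summed to 5893 and 2120 CPM in smooth muscle nuclei but to 1248 and 1949 CPM in pericytes, whose order between the libraries was the opposite.

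Inflammation and interferon genes were the list furthest above, with a median of 1.48. Of 18 tested, 14 were higher (77.8%, against 17.5% of all genes), none lower and 4 neither. The minimum of UMIs for a test counted both libraries together, so a gene sparse in WT could enter through its TG UMIs. With no minimum, 16 of 23 list genes were higher and none lower, beside 2028 higher of 18400 over all genes. The share of 77.8% thus depends on that minimum. STAT3, which carries cytokine signals to the nucleus, was higher, at 117 CPM in WT against 268 CPM in TG. IL1R1, the interleukin 1 receptor, was at 65.9 and 175 CPM, and IFI44L, an interferon-induced gene, at 22.8 and 84.8 CPM. Levels of most of the others were low: MX1, an antiviral GTPase, stood at 4.23 and 23.6 CPM and the adhesion molecule ICAM1 at 7.61 and 30.6 CPM. CXCL10, an interferon-induced chemokine, had 3 UMIs in WT and 35 in TG, of which 29 came from 1 nucleus. Without sub-clusters 4 to 7, 8 were higher and none lower, with a median of 1.14. The 15 endothelial markers were at 614 CPM in WT and at 1155 CPM in TG, and their part here was not tested.

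Of 18 genes of bone formation and vascular calcification 7 reached 20 UMIs and none was called, with a median of -0.19. RUNX2, the factor that commits cells to bone, was at 22.0 CPM in WT and at 34.8 CPM in TG.

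**Figure D3:**
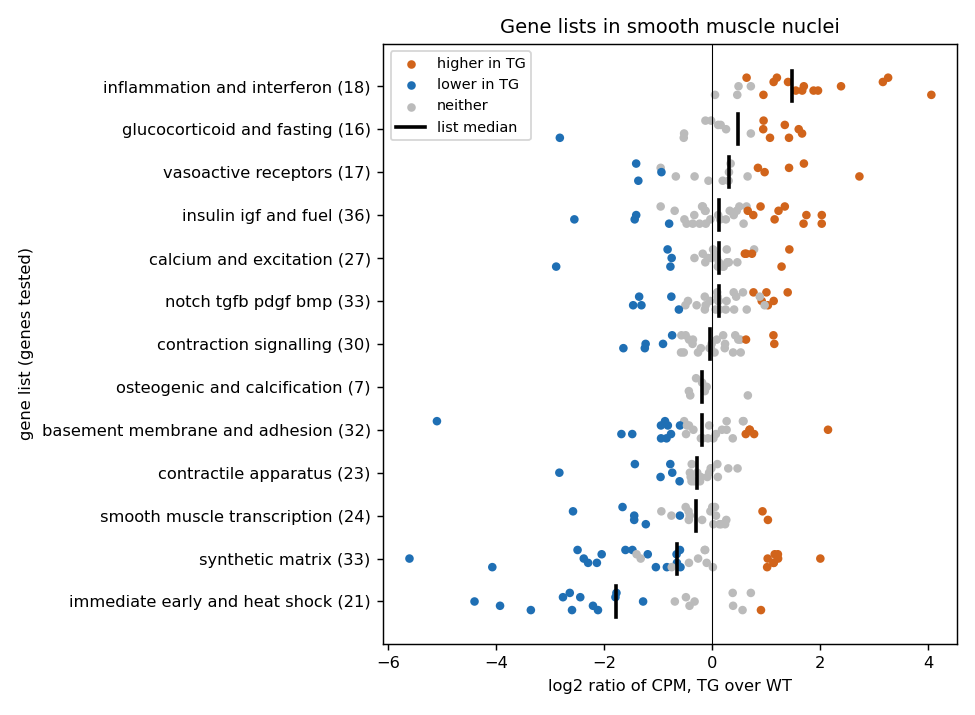
Log2 ratio of TG to WT (horizontal) of each tested gene in 13 gene lists (vertical). Dots are genes, coloured by call, and black bars are list medians, from 1.48 for inflammation and interferon to -1.77 for immediate early and heat shock genes.

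The nuclei varied among themselves along an axis marked by RGS6 and PDZRN4, a pattern noticed after the values had been seen. An RGS6 UMI was found in 24.2% of WT nuclei (19.1% to 29.9%) and 85.9% of TG nuclei (80.3% to 90.3%), or 19.6% and 69.3% after thinning to 1000 UMIs. Fibroblasts had it in 31.7% and 11.5% of nuclei, 15.5% and 4.1% after thinning, so the WT share lies near that of fibroblasts. The level separates them further: RGS6 was at 811 CPM in WT smooth muscle nuclei and 232 CPM in WT fibroblasts. In WT, 8 nuclei held both genes, 54 RGS6 alone, 166 PDZRN4 alone and 28 neither. In TG, 32 held both, 144 RGS6 alone, 12 PDZRN4 alone and 17 neither.

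**Figure D4:**
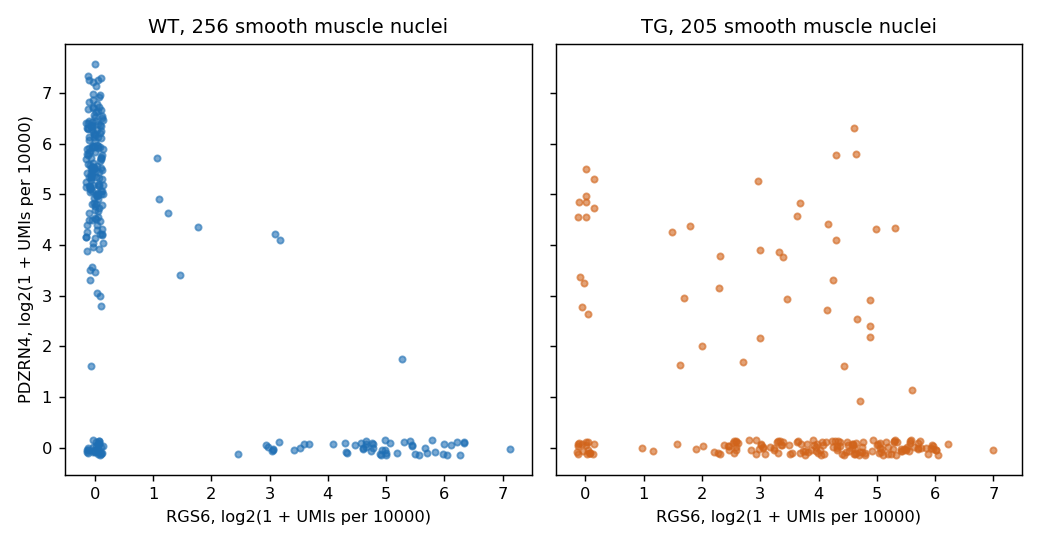
Each point is 1 smooth muscle nucleus, with log2(1 + UMIs per 10000) of RGS6 (horizontal) and PDZRN4 (vertical), and WT and TG in separate panels; points at 0 are slightly jittered. WT nuclei lie along both axes with 8 nuclei holding both genes, and most TG nuclei, 144 of 205, hold RGS6 without PDZRN4.

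Nuclei were divided by RGS6 into those with none, those under 0.05% of UMIs and those at 0.05% or above, called RGS6-high; this is a range of a single gene and not a cell type. WT had 194, 6 and 56 nuclei in these ranges and TG 29, 24 and 152, so RGS6-high nuclei were 21.9% of WT and 74.1% of TG. RGS6-high nuclei held a median of 14.5 RGS6 UMIs in WT and 6 in TG. Median depth was 3814 UMIs without RGS6 and 4021 with high RGS6 in WT, and 2816 and 2947 in TG; the 6 WT nuclei between them had 7904. Cardiomyocyte markers in nuclei without RGS6 and RGS6-high nuclei were at 4517 and 4175 CPM in WT and 8519 and 10016 CPM in TG.

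In WT the ranges differed in a broad set of genes. PDZRN4 was at 4685 CPM in nuclei without RGS6 and 42.6 CPM in RGS6-high nuclei, with a UMI in 166 of 194 against 3 of 56. ACTG2, a gene of the rule, followed it, at 1291 and 39.1 CPM, as did the matrix genes COL12A1 at 968 and 7.10 CPM, TNC at 941 and 21.3 CPM, COL8A1 at 1020 and 10.7 CPM and THBS1 at 2183 and 74.6 CPM. The early response gene NR4A3 was at 1018 and 39.1 CPM and ATF3 at 1568 and 320 CPM. NOX4, an oxidase that makes hydrogen peroxide, was at 423 and 14.2 CPM, and PTPRD, a receptor phosphatase, at 544 and 10.7 CPM. MYOCD was at 1620 and 753 CPM, while ACTA2, at 2681 and 2986 CPM, and TAGLN, at 490 and 614 CPM, were similar in both.

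Other genes were higher in RGS6-high WT nuclei. Of these nuclei 36 of 56 lay in sub-cluster 3, where pericyte markers (9815 CPM) stood above smooth muscle markers (8787 CPM). NOTCH3 and PDGFRB are on the pericyte marker list, and GUCY1A2 was a leading gene of that sub-cluster. The part of pericyte transcripts in these levels was not tested. NOTCH3 was at 52.5 CPM in WT nuclei without RGS6 and 540 CPM in RGS6-high ones, PDGFRB at 57.2 and 323 CPM, and RERGL with 6 UMIs in the former stood at 476 CPM in the latter. GUCY1A2, a subunit of the nitric oxide receptor, was at 22.2 and 380 CPM, SNTB1, a dystrophin-associated syntrophin, at 40.9 and 813 CPM, and SCN3A, a sodium channel, at 9.34 and 426 CPM. DOK6 had no UMI in the 194 WT nuclei without RGS6 and stood at 245 CPM in RGS6-high ones. CTNNA3 and PDE3A, a phosphodiesterase of cyclic AMP, were higher too, at 4738 and 10146 CPM and at 2942 and 7207 CPM. RGS5, the pericyte gene of the rule, was at 405 and 859 CPM, against 2778 CPM in WT pericytes.

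In TG the same genes separated the ranges much less. Many of them were chosen for the size of their difference in WT, a choice that by itself favours a smaller difference in TG. RGS6-high nuclei also held fewer RGS6 UMIs in TG than in WT, and TG nuclei were shallower. The part of depth in the smaller separation was not tested. PDZRN4 was at 837 CPM in the 29 TG nuclei without RGS6 and 325 CPM in the 152 RGS6-high ones. COL12A1, at 9.96 and 13.6 CPM, TNC, at 9.96 and 42.8 CPM, and ACTG2, a gene of the rule, at 69.8 and 124 CPM, were low in both. NOTCH3 was at 249 and 327 CPM, RERGL at 120 and 319 CPM and DOK6 at 229 and 401 CPM. TG nuclei without RGS6 thus had lower levels of PDZRN4, COL12A1 and TNC than WT nuclei without RGS6, and held NOTCH3, RERGL and DOK6, which in WT were found mainly in RGS6-high nuclei. Whether the libraries differ in this separation was not tested.

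**Figure D5:**
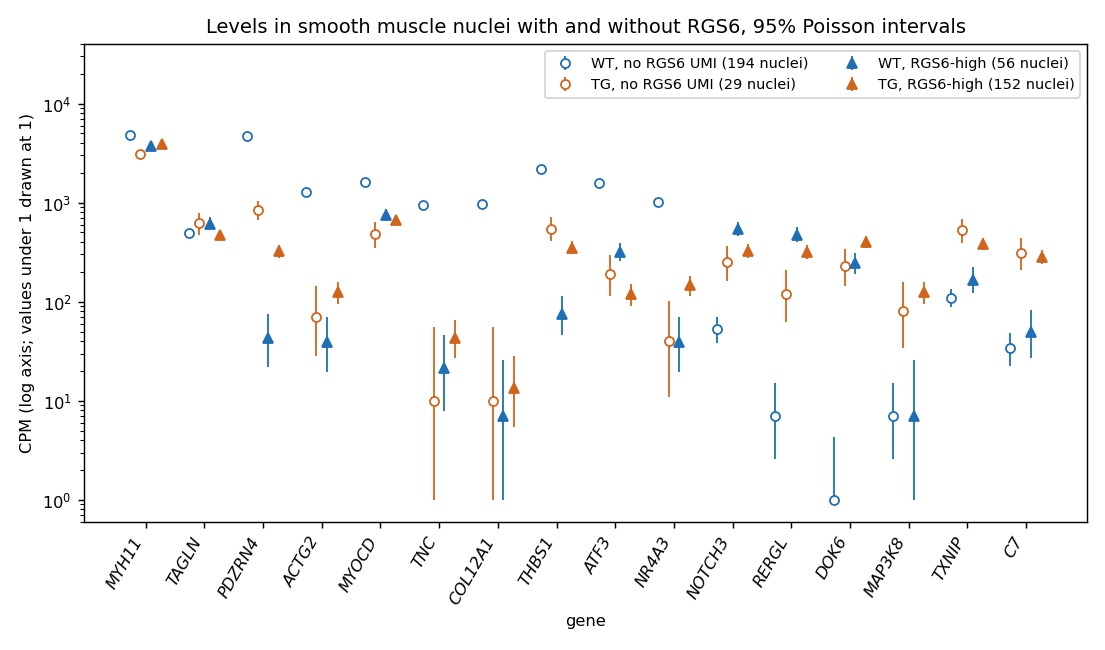
CPM on a log axis (vertical) of 16 genes (horizontal) in nuclei without RGS6 (open circles) and RGS6-high nuclei (triangles) of each library, with 95% Poisson intervals; values under 1 CPM are drawn at 1. WT values of PDZRN4, ACTG2, TNC and COL12A1 lie far apart (PDZRN4 at 4685 and 42.6 CPM), and the TG values lie closer together.

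When RGS6-high nuclei of the libraries were compared with each other, several genes that were lower in TG over all nuclei were not. These nuclei lay in different sub-clusters, with 36 of 56 in sub-cluster 3 in WT and 100 of 152 in sub-cluster 2 in TG. In them PDZRN4 was at 42.6 CPM in WT and at 325 CPM in TG and NR4A3 at 39.1 and 146 CPM, both called higher in TG. ACTG2, at 39.1 and 124 CPM, was called higher too, but as a gene of the rule it only describes the choice. TNC, at 21.3 and 42.8 CPM, was not called. COL3A1 was level, at 249 and 261 CPM, and CNN1 at 117 and 124 CPM. Of 6214 genes tested there, 622 (10%) were higher in TG and 559 (9%) lower. Of these, 367 were also called higher and 148 lower over all smooth muscle nuclei, and 60 were called in opposite directions. The median log2 ratio of the matrix list was 0.01 there, that of the contractile list 0.00 and that of the immediate early list 0.35. Of the 15 genes lower in TG only 5 had 20 UMIs or more there, of which UNC5C, LMCD1 and ATF3 were called lower, TNC was not called and PDZRN4 was higher. COL12A1, with 2 and 7 UMIs, and 9 others could not be called. Of the 15 higher in TG, 14 had enough UMIs and 13 were called higher.

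In nuclei without RGS6 these genes were lower in TG. COL12A1 was at 968 CPM in WT and at 9.96 CPM in TG, ATF3 at 1568 and 189 CPM and MYOCD at 1620 and 478 CPM. ACTG2, a gene of the rule, was at 1291 and 69.8 CPM. All 15 genes lower in TG over the whole set were called lower here as well, and of the 15 higher 6 had enough UMIs and 5 were called higher. Of 6223 genes tested 848 (13.6%) were higher and 487 (7.83%) lower. The TG side of this comparison holds 29 nuclei. MAP3K8 had 6 UMIs in WT and 8 in TG nuclei without RGS6, too few for a call, and 2 and 64 UMIs in RGS6-high nuclei, where it was higher in TG. C7 was higher in both ranges, at 33.9 and 309 CPM and at 49.7 and 282 CPM. DMD, lower over the whole set, was at 5146 and 2112 CPM without RGS6 and at 2116 and 2382 CPM with high RGS6.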

How the data were processed

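The values are counts of unique molecular identifiers per gene and nucleus, 1 matrix per library, deposited by the authors; they are raw counts, per the file headers and the values. Libraries used 10x Genomics 3' v3.1 chemistry on iodixanol-purified nuclei, per the labels' protocols. Sscrofa11.1, Cell Ranger 3.1.0 and Seurat 3.1.1 are named in the submitters' processing notes, whereas the file headers name Cell Ranger 5.0.0; this was not resolved. The matrices held 127126477 UMIs in 18251 WT barcodes and 89324966 UMIs in 15000 TG barcodes. Of 31908 genes, 16498 had symbols in the files and 851 more were named from a reference table of Ensembl IDs. List genes that matched no symbol, such as TTN, SYNM and LAMA2, were not used here. Coordinates are those of RefSeq for Sscrofa11.1, matched by symbol.

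Barcodes with 500 or more genes and no more than 5% mitochondrial UMIs (13 genes) were used (16725 WT and 14939 TG), and smooth muscle nuclei were taken from them by the rule in the report. Pericytes needed at least 5 UMIs and 0.2% from RGS5 and EGFLAM, above MYH11 and ACTA2; cardiomyocytes RYR2 of at least 0.8%; endothelial nuclei at least 0.2% from FLT1, PECAM1 and VWF; fibroblasts at least 0.2% from DCN, PDGFRA, ABCA8 and COL1A2. No doublet caller was run; nuclei with another cell type's genes were found by sub-clustering (scanpy 1.11.5, leidenalg 0.10.2, igraph 0.11.9, 1000 variable genes, 15 components, 15 neighbours, resolution 0.5, seed 1). UMIs were summed over nuclei and given per 1000000 nuclear-encoded UMIs. Log2 ratios had 0.5 added to each count. Intervals and ratios used Python 3.11.15, numpy 2.4.6, pandas 2.3.3 and scipy 1.17.1, and TMM factors edgeR 4.0.16 in R 4.3.3. Calls were tested on simulated data with Poisson error only, which is the error that the intervals assume. Bunching of UMIs in single nuclei was not simulated. UMI counting removes amplification copies, and intervals leave out any spread between animals.

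Named genes needed 50 CPM in the higher library and a level there at or above that of the other nuclei, and were ordered by the interval bound nearest a ratio of 1, 15 in each direction. Also named were the 20 genes furthest above other nuclei, and the 10 furthest above and the 10 furthest below pericytes. Up to 4 furthest genes per list were named too. Further list genes were chosen after their values were seen. So were those that follow RGS6 (at least 200 CPM, 12 in each direction), ranked by their difference between the ranges in WT only. A few of the genes so named are not reported here. The nuclei and lists were chosen with earlier results of these data known. Alternatives covered the filters, the rule, the weighting, depth and scaling of nuclei, free RNA and, chosen after seeing the data, the sub-clusters, the RGS6 ranges and single nuclei.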

Additional observations from a re-analysis of the deposited data

Results flagged for a closer look

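For 6 genes the difference between the libraries had opposite signs in smooth muscle and pericyte nuclei, each past the ratio of 1.5 with an interval that left out 1; the differences between the 2 cell types were not tested, and each rests on 1 library per genotype. They were among the named genes reported, and 113 of the 9011 genes tested showed opposite calls. Opposite calls were no rarer against the other classes, with 170 for cardiomyocytes, 162 for fibroblasts and 115 for endothelial nuclei. PTGER3, a prostaglandin E2 receptor, had a log2 ratio of TG to WT of -1.41 in smooth muscle nuclei (355 and 133 CPM) and 2.43 in pericytes (23.6 and 129 CPM). PDE4D, which degrades cyclic AMP, was at -1.25 (1491 and 628 CPM) and 0.81 (438 and 771 CPM), and the transcription factor GATA6 at -1.44 (92.1 and 33.4 CPM) and 0.77 in pericytes, where WT held 44.1 CPM. CSRNP3 was at -4.25 (92.1 and 4.17 CPM) and 1.64 (7.18 and 23.1 CPM). TP63 was at -4.35 in smooth muscle nuclei, with 45 of 117 WT UMIs in 1 nucleus, and in pericytes had no UMI in WT and 9.61 CPM in TG. In the other direction, RERGL was at 1.14 (120 and 266 CPM) in smooth muscle nuclei and -1.64 (50.3 and 15.4 CPM) in pericytes.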

How the results depend on the processing

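No paired analysis was possible because there is 1 library per genotype, and no replicate could be left out. The share ratio ran from 0.767 to 0.986 over its alternatives, within the interval reported. Of 106 named genes, 28 were called higher or lower and changed sign under at least 1 of up to 18 alternatives. The other 78 were not marked as reversed, but genes called in neither direction were not checked for a change of sign. TMM scaling gave 989 genes higher and 1281 lower, a ratio of 2 gave 1021 and 399, and thinning to 1000 UMIs gave 453 and 439 with PPARG at a log2 ratio of -0.20. The contractile median was -0.52 under TMM scaling and -0.54 with nuclei weighted equally. With the library-wide profile subtracted, 1231 genes were lower, the medians of the contractile, calcium, contraction signalling and glucocorticoid lists were 0.28, 0.55, 0.31 and 0.0038, and FLT1, ENG and TXNIP turned to -2.07, -3.06 and -3.08. NRG1 turned to -2.55 without the 10% of nuclei with the most UMIs, -1.36 without sub-clusters 4 to 7, -1.82 without its top nucleus and -0.37 in nuclei without RGS6; that last set gave 848 genes higher and KLF4 at 0.29. The remaining values come from RGS6-high nuclei only, with fewer nuclei and 6214 genes tested, an alternative chosen, like the sub-clusters, single nuclei and nuclei without RGS6, after seeing the data. There 622 genes were higher, and the medians were 0.0034 for contractile, 0.013 for matrix, 0.18 for basement membrane, 0.35 for immediate early and 0.67 for osteogenic genes. Log2 ratios turned positive for ACTG2 (1.62, a gene of the rule), PDZRN4 (2.88), COL12A1 (0.72), TNC (0.92), TP63 (0.72), ZNF385B (3.04), ITGA8 (0.50), CNN1 (0.077), ACTN1 (0.57), PRDM6 (0.35), KCNQ5 (1.16), PDE5A (0.31), COL3A1 (0.064), SGCD (0.52), ITGA5 (0.47), LTBP2 (1.94), PDGFD (1.78) and NR4A3 (1.85). They turned negative for RERGL (-0.58), PDE1C (-0.41), LAMA3 (-0.32) and RGS6 (-0.46), whose level chose these nuclei and whose value is therefore no reversal of a result. COL12A1, TP63 and ZNF385B had under 20 UMIs there. Apart from the fewer nuclei and genes, the cause was not tested. Depth limits genes with 1 to 3 UMIs in a library, whose ratios have intervals spanning more than 1 order of magnitude.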
